A study of Mus musculus and Sus scrofa with 18 samples.

Results

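The genes of the core splicing machinery and of its main regulators were examined in striatal tissue from HD 140Q-KI mice, a knock-in model of Huntington's disease, and from WT mice. They were all protein-coding genes whose symbol starts with Srsf, Hnrnp, Sf3a, Sf3b, Snrp, U2af or Prpf, without pseudogenes or antisense genes. This gave 68 of the 55357 genes in the mouse count table, with 20 Hnrnp, 13 Prpf, 12 Snrp, 11 Srsf, 6 Sf3b, 3 Sf3a and 3 U2af genes. A further 5 genes with such a symbol are of another gene type and were not used.

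Splicing removes introns from pre-mRNA and is carried out by the spliceosome, a machine built on each intron from small nuclear ribonucleoproteins (snRNPs) and many free proteins. The U1 snRNP recognizes the 5′ splice site, the U2AF heterodimer the 3′ splice site, and the U2 snRNP with its SF3A and SF3B complexes the branch point, after which the tri-snRNP of U4, U6 and U5 joins and the PRP proteins drive the rearrangements to catalysis. SR proteins and hnRNP proteins bind exons and introns and shift the choice of splice sites, and brain tissue is known for its extensive alternative splicing.

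The study injected AAV vectors into the striatum and sequenced RNA from 9 mice, 3 in each of 3 groups. WT mice received AAV-Ctrl gRNA. Heterozygous HD 140Q-KI mice carry an Htt allele whose first exon is the human one with a long CAG stretch. Those called untreated received AAV-CasRx/Ctrl gRNA. Those called treated received AAV-CasRx/HTT gRNAs, whose guides direct this RNA-cutting enzyme to HTT mRNA. Mice were injected at 6 months of age and killed 1.5 months after injection, per the study's methods. The CAG promoter, which is not restricted to a cell type, drove CasRx, and U6 promoters drove the guides. WT mice received no CasRx, so the effects of the Htt allele and of CasRx cannot be told apart in a comparison of either HD group with WT. Both HD groups carried the allele and CasRx and differed in the guides. Per the labels, libraries were made with a 3′ mRNA kit primed by oligo-dT, so the counts measure how much mRNA of a splicing gene was present and not which exons were used.

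Total counts ranged from 27184356 to 32102121 per mouse, and the 68 genes held between 0.857% and 0.932% of them, with 191 to 22432 counts for a gene in a mouse. All 68 of 68 passed the filter on low counts, beside 19463 genes of any kind. Htt, the targeted gene, was at 189, 191 and 182 CPM (counts normalized to library size with TMM factors) in WT mice, 145, 140 and 150 in untreated mice and 140, 130 and 136 after treatment. Its log2 fold change between treated and untreated mice was -0.10 ± 0.06 (SE, adjusted p = 0.942 with edgeR), which did not pass the threshold. Y-linked genes were counted in all 3 WT mice and in untreated replicate 1, and they were at 0 in the other 5 mice. Sex, as read from these counts, was thus unevenly spread, and a comparison of either HD group with WT may also carry its effect. With the presence of these counts as a covariate, 0 of the 68 genes were called in either comparison. Striatal projection neuron markers summed to 11551 to 15444 CPM in WT, 4228 to 4917 in untreated and 6128 to 6286 in treated mice. At an adjusted p under 0.05 with edgeR, 20 of 20 of them were lower in untreated than in WT mice. General neuron markers summed to 6086 to 7704 CPM in WT, 7345 to 8856 in untreated and 6923 to 7334 in treated mice. Of these 12 genes, 2 were higher and 0 lower in untreated than in WT mice at that threshold. Interferon-response genes summed to 101 to 107 CPM in WT, 273 to 1458 in untreated mice and 243 to 1003 after treatment, while astrocyte markers stayed between 3899 and 4511 CPM in all mice. Microglia markers summed to 404 to 451 CPM in WT, 535 to 1423 in untreated and 654 to 920 in treated mice. For B and plasma cells the sums were 114 to 159, 180 to 652 and 463 to 822, and for oligodendrocytes 9853 to 10767, 7789 to 8415 and 8166 to 12229. In untreated against WT mice, 1 of 12 microglia genes was called higher and 0 lower. Of 8 tested B and plasma cell genes 5 were called higher and 1 lower, and of 10 oligodendrocyte genes 1 higher and 2 lower. Choroid plexus markers ranged from 306 to 5472 CPM within WT, with the highest sum in WT replicate 2. Fewer cells of a type and less RNA per cell cannot be told apart in such tissue, and the part of these differences in the results that follow was not tested.

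Splicing genes changed by small amounts, and those that passed the test were lower in HD than in WT mice. At an adjusted p under 0.05, 7 of the 68 were lower in untreated than in WT mice and 0 were higher. They were Hnrnph3, Sf3b3, Prpf8, U2af2, Srsf7, U2af1 and Sf3a1, and each was lower by between 18.7% and 24.3%. The share that passed, 10.3%, was near the 10.7% of all tested genes that did, so the number of calls does not set these genes apart. Lower calls made up all of that 10.3%, beside 6.1% lower and 4.58% higher among all tested genes. No splicing gene reached a 2-fold change, which 8.16% of all tested genes did with an unadjusted P under 0.05. All tested genes were not matched to the 68 for expression level. The log2 fold changes ran from -0.40 to 0.40 with a median of -0.09, beside a median of 0.02 over all tested genes. The fold change was above 0 for 21 of 68 genes (30.9%) and for 52.1% of all tested genes. In treated mice 1 gene of the 68, Prpf8, was lower than in WT, beside 3.69% of all tested genes called, and 0 passed between treated and untreated mice, beside 0% of all tested genes.

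**Figure D1:**
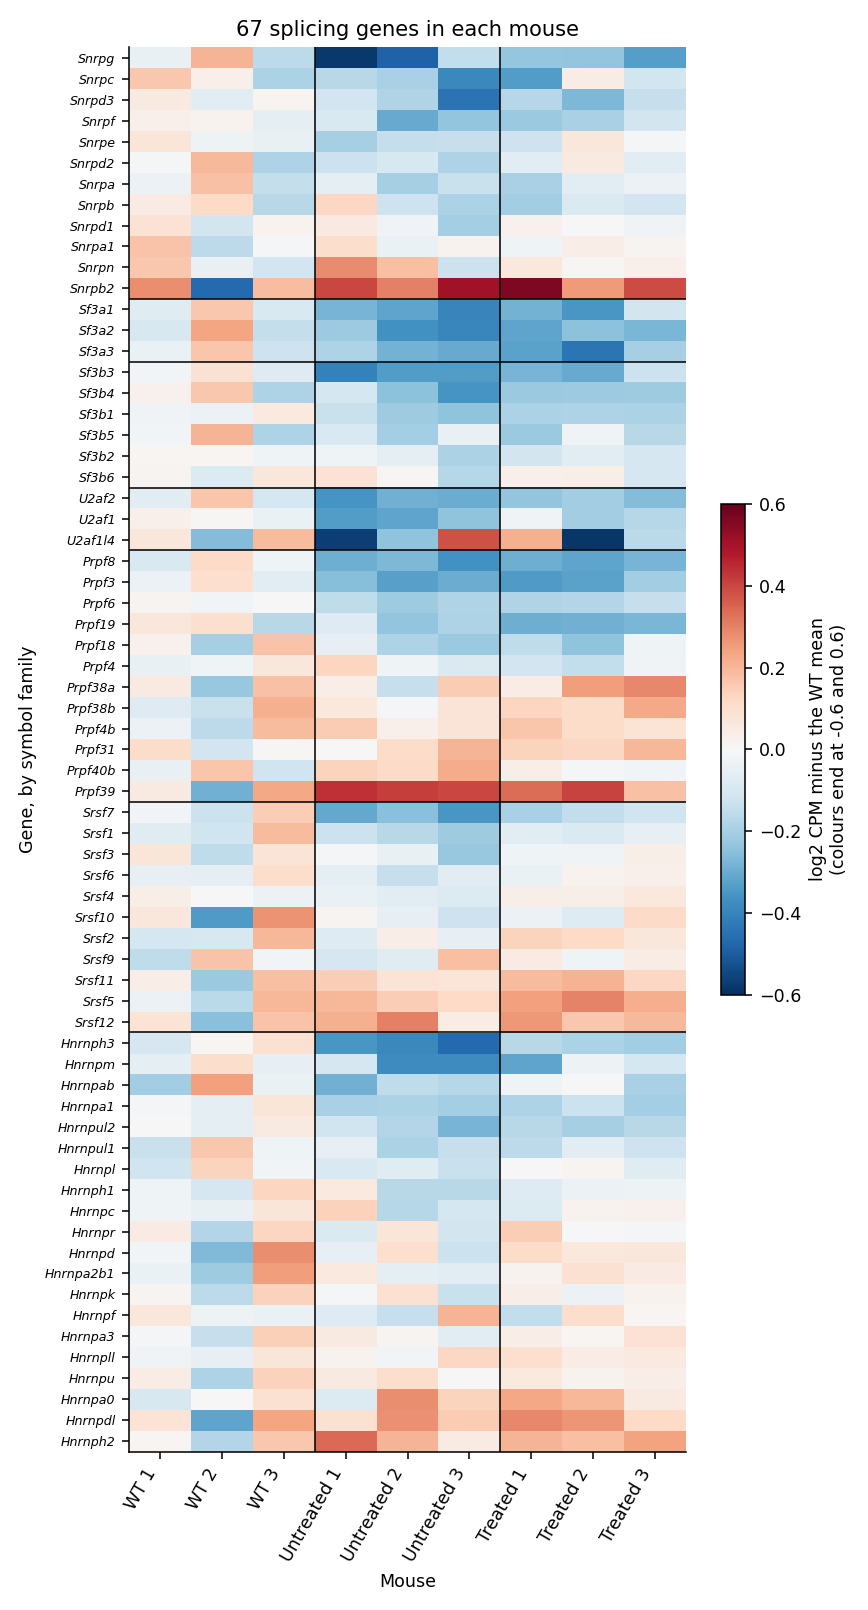
Each row is 1 of 67 of the splicing genes, grouped by symbol family, each column is 1 mouse, and the colour is log2 CPM minus the mean of the 3 WT mice, with blue below and red above it. The Sf3a, Sf3b and U2af rows are mostly blue in the 6 HD mice, with exceptions in some mice for U2af1l4 and Sf3b6, and the WT columns differ among themselves.

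Genes for proteins that recognize the branch point or the 3′ splice site made up 4 of the 7 calls. These were 1 of 3 Sf3a, 1 of 6 Sf3b and 2 of 3 U2af genes, beside 10.7% of all tested genes called. The families were those with the lowest medians in untreated mice, so this count is not independent of that choice. The calls of Sf3a1, U2af1 and U2af2 were lost without TMM factors and when any 1 untreated mouse was left out. U2AF is a dimer of a large subunit, U2AF65, encoded by U2af2, which binds the polypyrimidine tract, and a small subunit, U2AF35, encoded by U2af1, which contacts the AG at the intron's end. U2af2 was at 186, 219 and 182 CPM in WT mice, 153, 160 and 159 in untreated mice and 166, 169 and 163 after treatment. All 6 HD mice were below the lowest WT mouse. The log2 fold change was -0.32 ± 0.08 (SE, adjusted p = 0.0335) in untreated and -0.24 ± 0.08 (adjusted p = 0.12) in treated mice against WT. U2af1 was at 47.8, 47.0 and 45.5 CPM in WT, 37.0, 37.6 and 39.5 in untreated mice and 46.1, 40.5 and 41.5 after treatment. Untreated mice were all below WT (log2 fold change -0.30 ± 0.08, adjusted p = 0.0378), whereas treated replicate 1 lay within the WT range (-0.13 ± 0.08, adjusted p = 0.352). The paralog of the small subunit, U2af1l4, had between 6.62 and 12.98 CPM over the 9 mice and its groups overlapped.

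SF3A is a 3-subunit complex that completes the mature U2 snRNP. Its largest subunit gene, Sf3a1, was at 82.4, 97.0 and 81.4 CPM in WT, 71.4, 69.5 and 65.7 in untreated mice and 71.2, 68.1 and 80.4 after treatment. It was lower in untreated mice by 20.8% (log2 fold change -0.34 ± 0.09, adjusted p = 0.0451) and all HD mice lay below the WT range, treated replicate 3 only just. Sf3a2 (-0.33 ± 0.11, adjusted p = 0.0859) and Sf3a3 (-0.26 ± 0.10, adjusted p = 0.134) did not pass in untreated mice. In these 2 genes as in Sf3a1, every HD mouse of either group was below every WT mouse.

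SF3B holds the branch-point adenosine of the intron, and Sf3b3 encodes its large scaffold subunit. Sf3b3 was at 94.9, 102 and 90.8 CPM in WT, 72.4, 76.0 and 76.0 in untreated mice and 79.1, 77.8 and 87.8 after treatment. It fell by 0.36 on the log2 scale in untreated mice (SE 0.07, adjusted p = 0.0167). In treated mice against WT the value was -0.24 ± 0.07 (adjusted p = 0.102), again with no overlap. Sf3b1, the subunit that is often mutated in blood cancers and that encloses the branch helix, was at -0.19 ± 0.06 (adjusted p = 0.0778) in untreated mice, with 350, 346 and 370 CPM in WT, 324, 307 and 301 in untreated mice and 312, 312 and 312 after treatment. The 6 Sf3b genes ranged from -0.36 to -0.02 in untreated mice.

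Taken by family, the medians in untreated against WT mice were -0.33 for Sf3a, -0.30 for U2af and -0.16 for Sf3b. All 12 genes of these 3 families had a log2 fold change below 0 in both comparisons with WT, although only 4 passed, all in untreated mice. The 2 comparisons share the WT mice and are not independent of each other. The 3 families were those with the lowest medians in untreated mice, so counts over their 12 genes are not independent of that choice. When libraries were scaled by their total counts without TMM factors, which placed the median of all tested genes at 0.07 in untreated mice, 1 of the 12 genes was above 0. Over all settings tried between 0 and 2 of the 12 were above 0 in either comparison, with 2 above 0 in untreated mice when WT replicate 3 was left out.

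**Figure D2:**
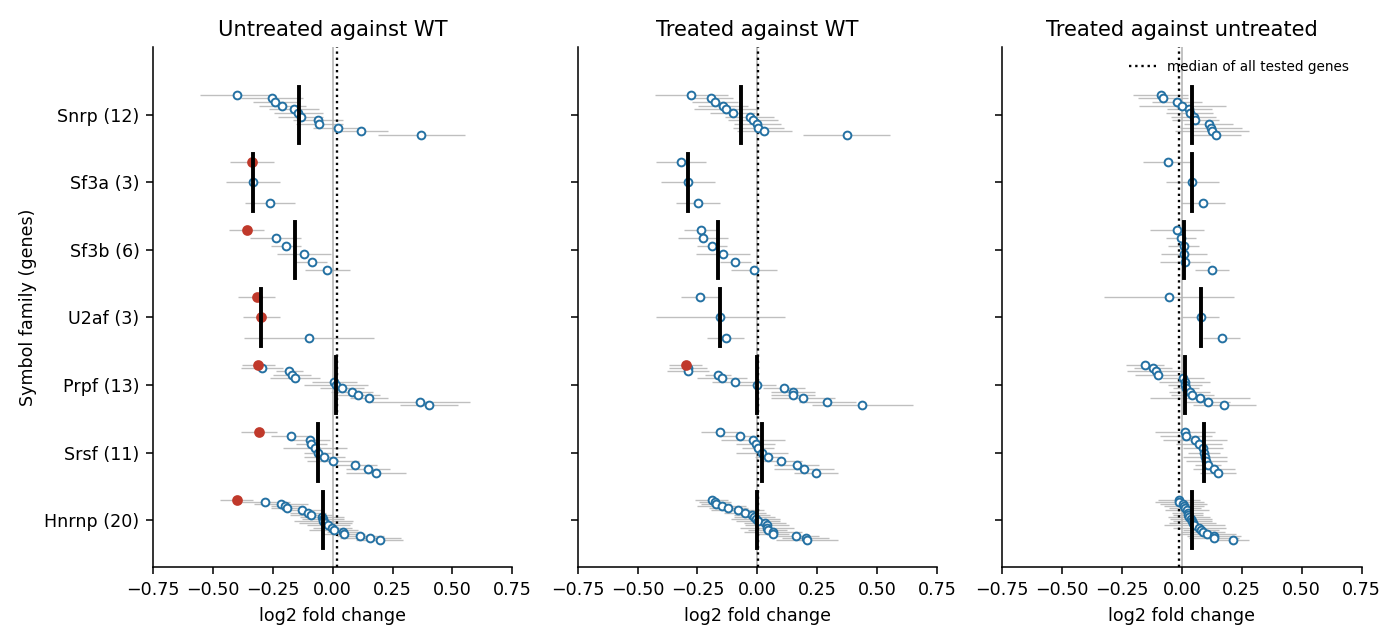
Points are the log2 fold changes of the 68 splicing genes with their standard errors as grey lines, filled red where the adjusted p was under 0.05, for the 3 comparisons. Thick black bars are family medians and the dotted line is the median of all tested genes. The Sf3a, Sf3b and U2af medians lie left of the dotted line in both comparisons with WT, and the Srsf genes all lie right of 0 in treated against untreated mice.

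The PRP proteins act in the tri-snRNP, in the activation of the spliceosome and in its catalysis. Prpf8 encodes the largest protein of the U5 snRNP, which sits at the catalytic center. Its CPM was 252, 290 and 264 in WT, 219, 222 and 209 in untreated mice and 219, 215 and 221 after treatment. Both HD groups lay below WT by nearly the same amount, with log2 fold changes of -0.31 ± 0.07 (adjusted p = 0.0248) in untreated and -0.30 ± 0.07 (adjusted p = 0.0487) in treated mice. Prpf8 was the only gene of the 68 that passed in treated mice. The share that passed there was 1.47%, beside 3.69% of all tested genes (2.78% lower and 0.904% higher). The call in treated mice was lost when any mouse other than WT replicate 1 or untreated replicate 3 was left out.

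Prpf3, a tri-snRNP protein that binds the paired U4 and U6 RNAs, was at 25.4, 27.9 and 24.9 CPM in WT, 21.8, 20.8 and 21.2 in untreated mice and 20.6, 20.9 and 22.5 after treatment. Its log2 fold changes were -0.30 ± 0.09 (adjusted p = 0.0614) and -0.29 ± 0.09 (adjusted p = 0.0995). Prpf6, which bridges U5 with the paired U4 and U6, was at -0.18 ± 0.06 (adjusted p = 0.0679) and -0.16 ± 0.06 (adjusted p = 0.132). In both genes all HD mice lay below all WT mice, and neither passed. Prpf19, the ubiquitin ligase that gives its name to the PRP19 complex, was at 157, 160 and 133 CPM in WT, 142, 127 and 131 in untreated mice and 122, 122 and 123 after treatment. It had the second smallest P among the 68 genes in treated against WT mice (-0.29 ± 0.08, adjusted p = 0.0774).

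The Prpf genes did not share a direction. In untreated mice 8 of the 13 had a log2 fold change above 0 and the family median was 0.01. The largest value of the 68 was that of Prpf39, which encodes a protein of the early U1 stage, with 51.9, 41.0 and 58.8 CPM in WT, 67.7, 66.7 and 66.0 in untreated mice and 63.2, 66.3 and 56.5 after treatment. Untreated mice lay above WT (log2 fold change 0.40 ± 0.12, adjusted p = 0.0636), without passing.

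**Figure D3:**
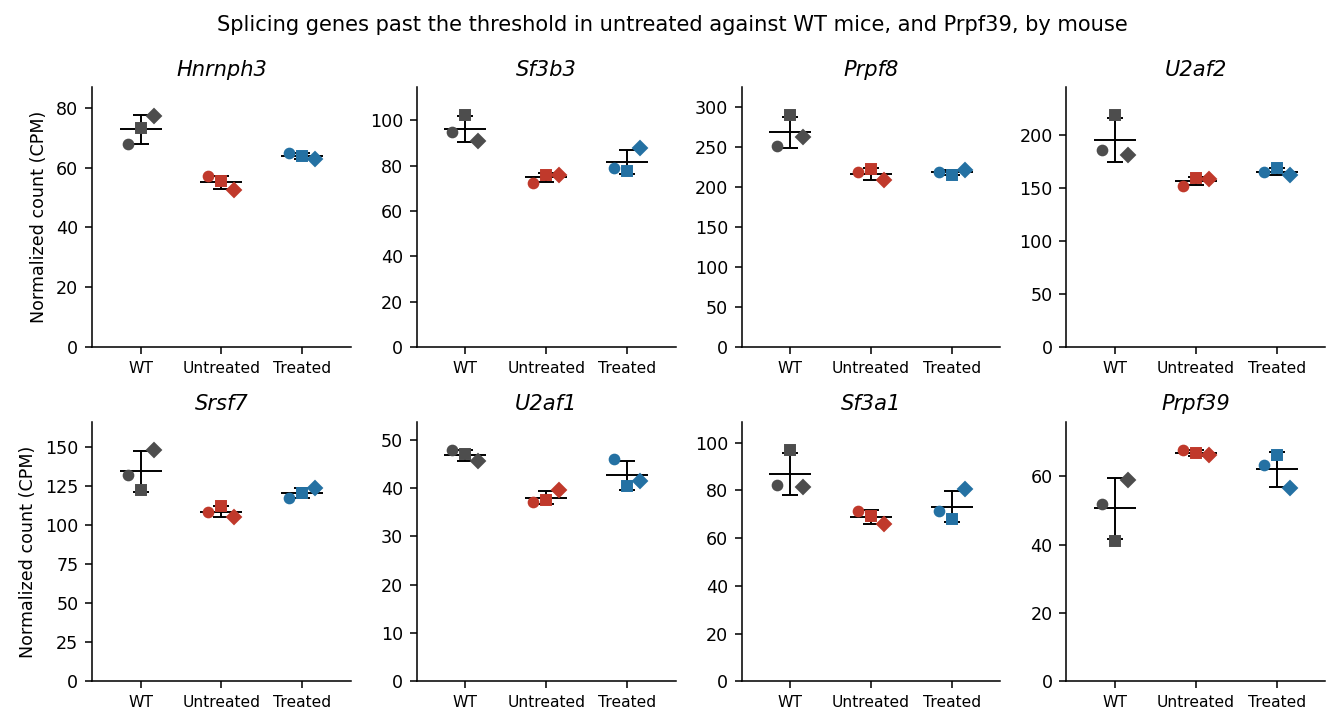
Normalized counts (CPM) of the 7 splicing genes with an adjusted p under 0.05 in untreated against WT mice, and of Prpf39, in each mouse, with replicate 1 as a circle, 2 as a square and 3 as a diamond. Horizontal lines and bars are the mean and SD of 3 mice, and all axes start at 0. In the first 7 panels the 3 untreated mice lie below the 3 WT mice, and in the last they lie above them.

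The Snrp genes encode the Sm proteins, which form the ring that all spliceosomal snRNPs but U6 share, and proteins specific to U1 and U2. None of the 12 passed in either comparison with WT. At an unadjusted P under 0.05, Snrpg and Snrpd3 were the 2 that did in untreated mice, where the family median was -0.14. Snrpg, an Sm protein, had the lowest value, -0.40 ± 0.15 (adjusted p = 0.121), with 10.1, 12.04 and 9.37 CPM in WT, 6.98, 7.46 and 9.44 in untreated mice and 8.89, 8.86 and 8.30 after treatment. Untreated replicate 3 lay at the level of WT replicate 3, so these groups overlapped. Snrpb2, a U2 protein, stood apart at 0.37 ± 0.18 (adjusted p = 0.212). Snrpn, an imprinted Sm gene expressed in neurons and close in sequence to Snrpb, ranged from 591 to 787 CPM over the mice and its groups overlapped. Reads of such near copies and of processed pseudogenes may have been assigned to either, which makes the values of the Sm genes, Hnrnpa1 and other genes with many copies less certain.

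SR proteins bind exonic enhancers through their RNA recognition motifs and recruit U1 and U2AF through their arginine and serine rich domains. Srsf7 was the only SR protein gene that passed in untreated mice, at 133, 123 and 149 CPM in WT, 108, 113 and 105 in untreated mice and 117, 121 and 124 after treatment. It was lower by 19.2% (log2 fold change -0.31 ± 0.08, adjusted p = 0.0343). In treated mice the value against WT was -0.16 ± 0.08 (adjusted p = 0.268) and the groups overlapped. Srsf5 differed in direction, at 354, 324 and 417 CPM in WT, 417, 402 and 394 in untreated mice and 430, 446 and 422 after treatment. Its value in treated against WT mice was 0.25 ± 0.09 (adjusted p = 0.167), which did not pass, though all treated mice lay above the WT range.

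The hnRNP proteins coat nascent transcripts and act as activators or silencers of nearby splice sites. Hnrnph3, a small member of the group that binds runs of G, had the smallest P of the 68 genes. Its CPM was 67.8, 73.3 and 77.4 in WT, 57.1, 55.6 and 52.7 in untreated mice and 64.8, 63.8 and 62.9 after treatment, so the 3 groups were separate from each other. It was lower by 24.3% in untreated mice (log2 fold change -0.40 ± 0.07, adjusted p = 0.00875 with edgeR). It was at -0.19 ± 0.07 (adjusted p = 0.149) in treated against WT mice and at 0.21 ± 0.07 (adjusted p = 0.886) in treated against untreated mice, of which neither passed. The other 19 Hnrnp genes did not pass. Hnrnpa1, a widely expressed silencer, came nearest, at -0.20 ± 0.06 (adjusted p = 0.0722), with 299, 290 and 318 CPM in WT and 263, 265 and 262 in untreated mice. The family median was -0.04 in untreated mice, with 6 of 20 genes above 0, and without TMM factors it was 0.01, with 12 of 20 above 0.

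Looser thresholds gave more genes. At an unadjusted P under 0.05, 18 of the 68 genes were lower in untreated mice and 1 (Prpf39) was higher, that is 26.5% and 1.47%, beside 13.7% and 15% of all tested genes. In 22 genes (32.4%) all 3 untreated mice lay below all 3 WT mice and in 2, Prpf39 and Snrpb2, they lay above, beside 15.1% and 15% of all tested genes. In treated mice 13 genes were lower and 2, Srsf5 and Prpf39, were higher at an unadjusted P under 0.05 (19.1% and 2.94%, beside 11.6% and 9.78%). This balance depended on the scaling and on 1 mouse, with 5 lower and 8 higher without TMM factors and 11 lower and 12 higher without WT replicate 3. In untreated mice the same settings gave 13 lower and 4 higher, and 20 lower and 7 higher. Treated mice lay below WT without overlap in 18 genes and above in 5, beside 15.1% and 13.4% of all tested genes. The median in treated mice was -0.02 and that of all tested genes 0.00, and 26 genes (38.2%) were above 0, beside 50.6% of all tested genes. Without TMM factors that median was 0.04, beside 0.06 over all tested genes, so its sign depends on the scaling. A 2-fold change with an unadjusted P under 0.05 was seen in 0 of the 68 genes and in 5.22% of all tested genes.

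Promoter sequences of the genes called lower in untreated mice are shown as a description, since these genes were selected by their calls. RefSeq windows of 300 bases on GRCm38.p6, from 250 bases before to 50 bases after the transcription start, were found for 59 of the 68 genes and for 6 of the 7 genes called (not for U2af2). Capitals mark matches on either strand to CCGGAAG, the core bound by ETS factors, to CCAAT, the core bound by NF-Y, and to TCTCGCGA, an element of CpG-rich promoters. The windows are chr11:4160104-4160403 on the plus strand for Sf3a1, chr8:110846754-110847053 on the minus strand for Sf3b3, chr17:31658715-31659014 on the minus strand for U2af1, chr11:75486527-75486826 on the plus strand for Prpf8, chr17:80207256-80207555 on the minus strand for Srsf7 and chr10:63023800-63024099 on the minus strand for Hnrnph3, each printed 5′ to 3′ in the direction of transcription.
Sf3a1: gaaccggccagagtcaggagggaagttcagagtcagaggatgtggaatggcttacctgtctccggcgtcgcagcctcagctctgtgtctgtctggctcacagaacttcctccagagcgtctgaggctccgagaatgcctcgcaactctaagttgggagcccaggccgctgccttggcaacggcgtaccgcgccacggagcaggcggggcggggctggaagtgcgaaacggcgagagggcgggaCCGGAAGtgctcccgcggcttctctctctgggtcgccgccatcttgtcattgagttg
Sf3b3: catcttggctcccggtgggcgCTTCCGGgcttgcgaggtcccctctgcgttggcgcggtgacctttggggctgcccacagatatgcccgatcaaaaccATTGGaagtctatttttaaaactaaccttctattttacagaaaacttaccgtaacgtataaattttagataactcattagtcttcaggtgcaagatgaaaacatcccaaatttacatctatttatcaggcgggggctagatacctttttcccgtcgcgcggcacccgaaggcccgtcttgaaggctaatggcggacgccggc
U2af1: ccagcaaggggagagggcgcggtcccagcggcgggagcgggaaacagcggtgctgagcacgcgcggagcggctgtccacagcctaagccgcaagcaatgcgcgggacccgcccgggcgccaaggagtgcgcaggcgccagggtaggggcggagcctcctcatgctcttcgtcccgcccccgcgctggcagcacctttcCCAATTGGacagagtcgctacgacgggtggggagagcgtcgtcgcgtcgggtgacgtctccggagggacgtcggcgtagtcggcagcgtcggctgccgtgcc
Prpf8: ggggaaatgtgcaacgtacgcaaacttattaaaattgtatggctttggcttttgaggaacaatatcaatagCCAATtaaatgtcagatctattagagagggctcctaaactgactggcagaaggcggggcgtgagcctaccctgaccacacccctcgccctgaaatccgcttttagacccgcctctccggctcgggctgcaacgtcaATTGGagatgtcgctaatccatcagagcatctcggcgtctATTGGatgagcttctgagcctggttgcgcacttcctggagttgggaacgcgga
Srsf7: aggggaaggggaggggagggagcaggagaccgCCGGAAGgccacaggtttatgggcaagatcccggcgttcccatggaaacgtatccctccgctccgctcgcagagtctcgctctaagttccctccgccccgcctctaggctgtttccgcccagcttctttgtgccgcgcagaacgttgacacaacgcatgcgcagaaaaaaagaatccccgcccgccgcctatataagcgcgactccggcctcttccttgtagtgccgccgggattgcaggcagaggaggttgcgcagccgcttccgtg
Hnrnph3: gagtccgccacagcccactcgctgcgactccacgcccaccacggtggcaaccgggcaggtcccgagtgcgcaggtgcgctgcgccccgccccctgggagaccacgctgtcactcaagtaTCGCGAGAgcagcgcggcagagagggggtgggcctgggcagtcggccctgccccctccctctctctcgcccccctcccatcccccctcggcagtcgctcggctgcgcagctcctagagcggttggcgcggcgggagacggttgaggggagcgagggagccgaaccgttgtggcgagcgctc

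CCGGAAG was found in 3 of these windows (Sf3a1, Sf3b3 and Srsf7) and CCAAT in 3 (Sf3b3, U2af1 and Prpf8, in U2af1 as a match on each strand that overlap each other). TCTCGCGA was found in that of Hnrnph3. The motifs were chosen after the windows were viewed, so the shares that follow are not independent of that choice. Of the 59 splicing genes with a window, 20 (33.9%) had CCGGAAG in any of their listed windows, beside 12.95% of 17492 protein-coding genes. CCAAT was present in 30 (50.85%, beside 42.3%), TCTCGCGA in 4 (6.78%, beside 1.59%) and the TATA box TATAAA in 7 (11.9%, beside 14.8%). Taken over the first listed window of each gene, the ratio of observed to expected CpG was above 0.6 in 94.9% of splicing genes. The median ratios were 0.921 in splicing genes and 0.577 in all protein-coding genes, where 48.3% were above 0.6. The other 4 of 8 motifs searched on both strands were the E-box CACGTG (9 genes, 15.25%, beside 8.91%), ATGGCGGC of YY1 (6 genes, 10.2%, beside 3.50%), GCATGCGC of NRF1 (4 genes, 6.78%, beside 3.94%) and ACTACAA of ZNF143 (3 genes, 5.08%, beside 4.19%), and they are not capitalized. The protein-coding genes were not matched to the splicing genes for CpG content, and the differences in motif shares were not tested. A match is a run of letters and does not show that a factor is bound.

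Between treated and untreated mice no splicing gene passed with edgeR, and neither did any of the 19463 genes tested (0%). DESeq2 also called 0 of the 68 genes, and at an unadjusted P under 0.05 edgeR gave 1 gene higher, Hnrnph3, and 0 lower, beside 2.5% and 3% of all tested genes. A 2-fold change with an unadjusted P under 0.05 was seen in 0 of the 68 genes and in 0.771% of all tested genes. The fold changes ran from -0.15 (Prpf40b) to 0.21 (Hnrnph3) on the log2 scale. Of the 68, 55 (80.9%) were above 0, beside 46.3% of all tested genes, with a median of 0.04 beside -0.01. In 14 genes the treated mice lay above the untreated mice without overlap and in 2, Prpf19 and Prpf40b, below, beside 6.92% and 8.83% of all tested genes. Prpf40b, whose product acts with U1, was at 75.02, 86.8 and 71.2 CPM in WT, 84.8, 83.8 and 90.4 in untreated mice and 79.2, 77.1 and 76.4 after treatment, so the treated mice lay within the WT range.

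All 11 SR protein genes had a log2 fold change above 0 in treated against untreated mice, between 0.01 and 0.15, beside 46.3% of all tested genes. In 6 of them (54.5%), Srsf1, Srsf2, Srsf4, Srsf5, Srsf6 and Srsf7, the 3 treated mice lay above the 3 untreated mice, beside 6.92% of all tested genes. Of the 20 Hnrnp genes, 18 (90%) were also above 0, and 2 (10%) were higher without overlap. Srsf was the family with the highest median, 0.09, so counts over its genes are not independent of that choice. Srsf4, which was at 69.5, 67.9 and 66.3 CPM in WT, 66.0, 64.9 and 64.2 in untreated mice and 69.7, 69.6 and 70.9 after treatment, had a log2 fold change of 0.11 ± 0.05 (adjusted p = 0.901). Srsf7 was at 0.15 ± 0.08 (adjusted p = 0.901). U2af1 was at 0.17 ± 0.08 (adjusted p = 0.889), and Sf3b3 at 0.12 ± 0.07 (adjusted p = 0.923), so no single gene passed. Between 10 and 11 of the 11 Srsf genes were above 0 in every setting tried, including the scaling without TMM factors. Without untreated replicate 1, which alone of the HD mice had Y-linked counts, 10 of the 11 were above 0. The genes that passed in untreated against WT mice were taken at their lowest in untreated mice, so a value nearer to WT in treated mice is not independent of that choice.

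**Figure D4:**
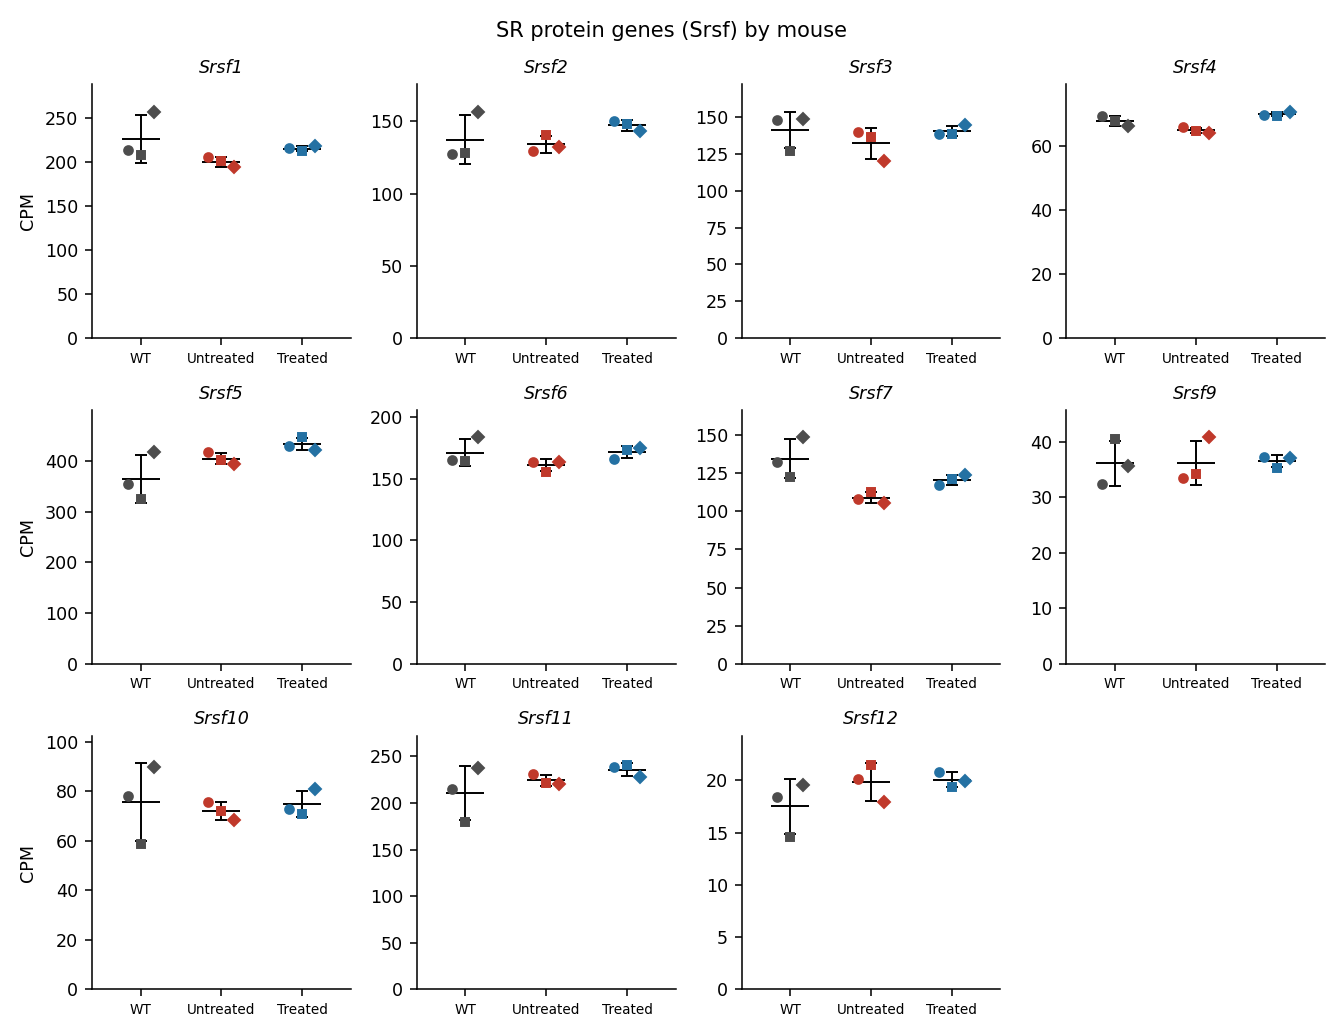
CPM of the 11 SR protein genes in each mouse, with replicate 1 as a circle, 2 as a square and 3 as a diamond, and the mean and SD of 3 mice as lines, on axes that start at 0. The 3 treated mice lie above the 3 untreated mice in Srsf1, Srsf2, Srsf4, Srsf5, Srsf6 and Srsf7, with log2 fold changes between 0.09 and 0.15 in these genes.

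Splicing genes outside these 7 symbol families were counted for comparison, from lists of 163 genes of which 161 were tested. In untreated mice 12 were lower and 3 higher than in WT, or 7.45% and 1.86%, beside 6.1% and 4.58% of all tested genes. In treated mice 5 were lower (3.11%, beside 2.78% of all tested genes) and 0 higher (beside 0.904%). At an unadjusted P under 0.05 these were 26 and 12 (16.1% and 7.45%, beside 11.6% and 9.78%), and with DESeq2 10 and 6, where 10.2% of all tested genes were called. The shares called lower at an adjusted p were near those of all tested genes. Between the HD groups 0 passed (5 lower and 1 higher at an unadjusted P under 0.05, and 0 with DESeq2). In the list of 42 further U snRNP genes, 2 (4.76%, beside 6.1% of all tested genes) were called lower in untreated mice and 0 higher. These 2, Snrnp200 and Eftud2, encode partners of Prpf8 in the U5 snRNP. Snrnp200, the helicase that unwinds U4 from U6, was at 148, 158 and 151 CPM in WT and 123, 127 and 117 in untreated mice (log2 fold change -0.32 ± 0.06, adjusted p = 0.0150). Eftud2, the U5 GTPase, was at 107, 113 and 99.4 CPM in WT, 90.0, 84.4 and 80.5 in untreated mice and 86.0, 79.7 and 79.7 after treatment. It passed in both, at -0.32 ± 0.07 (adjusted p = 0.0249) and -0.38 ± 0.07 (adjusted p = 0.0240). Plrg1, a core protein of the PRP19 complex, fell by 0.41 on the log2 scale in untreated mice (SE 0.08, adjusted p = 0.0184), whereas Cwc27, a cyclophilin of the spliceosome, was higher (0.58 ± 0.13, adjusted p = 0.0248). The other 2 higher genes were Elavl4 and Ralyl, which encode RNA-binding proteins of neurons.

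Of 24 genes for SR-related proteins and their kinases, 11 (45.8%, beside 52.1% of all tested genes) had a log2 fold change above 0 in untreated mice. At an adjusted p under 0.05 with edgeR, 2 were lower (8.33%, beside 6.1%) and 0 higher. These 2 were the kinases Srpk1 and Clk1, which phosphorylate SR proteins. Srpk1, which acts mainly in the cytoplasm, was at 124, 123 and 119 CPM in WT, 94.4, 84.5 and 88.0 in untreated mice and 84.1, 90.9 and 93.0 after treatment, with log2 fold changes of -0.46 ± 0.07 (adjusted p = 0.00404) and -0.45 ± 0.07 (adjusted p = 0.00823). Clk1, a nuclear kinase, was at -0.30 ± 0.08 in untreated mice (adjusted p = 0.0440) and at -0.14 ± 0.08 in treated mice (adjusted p = 0.360). Among 40 tested regulators of restricted expression, 3 (7.5%, beside 6.1% of all tested genes) were lower and 2 (5%, beside 4.58%) higher in untreated mice. The lower genes included Celf3 (-0.46 ± 0.08, adjusted p = 0.00784) and Celf5 (-0.42 ± 0.07, adjusted p = 0.00823), which are enriched in neurons. Both were also lower in treated mice, at -0.33 ± 0.08 (adjusted p = 0.0456) and -0.34 ± 0.07 (adjusted p = 0.0350).

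Splicing genes varied less between mice of a group than all tested genes did. Over the 68 the median SD of log2 CPM came to 0.15 among WT, 0.08 among untreated and 0.04 among treated mice. Over all tested genes it was 0.22, 0.16 and 0.12. All tested genes were not matched to the 68 for expression level, so the difference cannot be assigned to splicing genes as such. WT mice varied most. GC content was taken over the whole longest transcript, and libraries made with a 3′ mRNA kit may not have read all of it. Over the 68 genes, Spearman's rho was taken between this GC content and the deviation from the mean of all mice. It was 0.31, 0.64 and -0.33 in the 3 WT mice, between -0.32 and -0.12 in untreated and between -0.50 and -0.30 in treated mice. The points share a library and its composition, so these are descriptions over genes. In the same genes rho between GC content and the log2 fold change was -0.40 in untreated and -0.48 in treated mice against WT and -0.12 between the HD groups, beside -0.17, -0.23 and -0.04 over 19406 tested genes. Of the 7 genes that passed in untreated mice, 5 had a GC content at or above the median of the 68, 45.5%. The trend with GC was also taken out of each library, a step added after the data were seen. All 7 genes were then still called, together with 6 more, and 12 of these 13 were lower. Over all tested genes the share called rose as well, from 10.7% to 14.5%. The part of GC content in the calls was not tested.

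**Figure D5:**
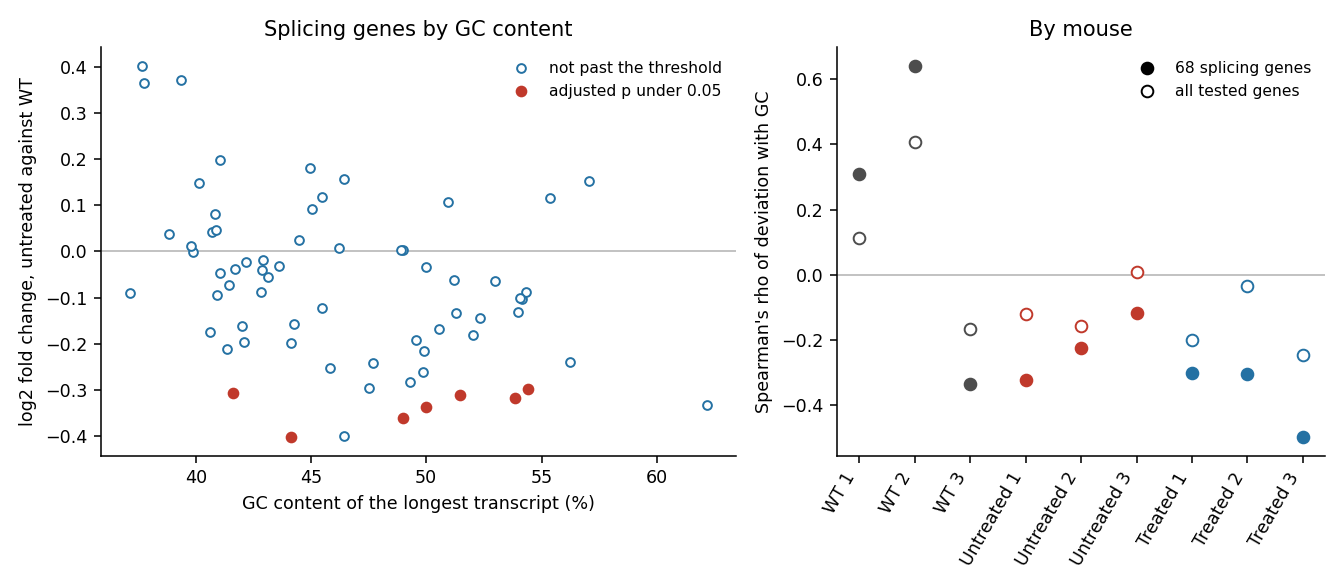
On the left, the log2 fold change of the 68 splicing genes in untreated against WT mice is plotted against the GC content of their longest transcript, with genes past the threshold in red. On the right is Spearman's rho between GC content and each mouse's deviation from the mean of all mice. It is shown over the 68 genes (filled) and all tested genes (open). WT replicates 1 and 2 lie above 0 and WT replicate 3 lies below it with the 6 HD mice, apart from all tested genes in untreated replicate 3.

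The number of calls depended on the fit and on the mice in it. Leaving out each of the 9 mice in turn gave between 2 and 6 of the 68 genes called in untreated against WT mice, and Hnrnph3 and Sf3b3 were called each time. The count was 6 without WT replicate 1, 5 without WT replicate 3, 3 without WT replicate 2 or treated replicate 1, and 2 without any other mouse. Without both WT replicate 2 and untreated replicate 1 the count was 1, Hnrnph3. With the presence of Y-linked counts as a covariate 0 of the 68 were called with edgeR (7 lower and 2 higher at an unadjusted P under 0.05), while 1.29% of all tested genes were. In that fit Hnrnph3 was at -0.35 ± 0.10 (adjusted p = 0.159) and Sf3b3 at -0.41 ± 0.11 (adjusted p = 0.128). Among the treated and WT mice alone, the presence of Y-linked counts and the group cannot be told apart, since no treated mouse and every WT mouse had such counts. In the fit of all 9 mice the covariate rests on the untreated mice, where replicate 1 alone had such counts.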

How the data were processed

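RNA from the striatum of 9 mice (3 WT, 3 untreated and 3 treated) was analysed as deposited by the authors, as raw read counts per gene. The study's methods name STAR for alignment and quantification. The submitters' processing notes list Trimmomatic 0.39, FastQC 0.11.9, HISAT2 2.2.1, featureCounts 2.0.1 and Subread with no role or order, and the mouse build is not given in the sources used here. Counts of the 9 pigs were not used here.

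All mouse genes passing filterByExpr were fitted together in edgeR 4.0.16 (R 4.3.3) with TMM scaling, 1 coefficient per group and the quasi-likelihood F test. P-values were adjusted by the Benjamini-Hochberg method over the 19463 genes tested, with a threshold of 0.05, and the test was run on simulated counts first. Errors of fold changes are standard errors. Replicates were separate mice. Gene types and the GC content of the longest transcript came from GENCODE M21.

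The 68 genes and all lists were chosen with earlier results of these data known. Genes named were those with an adjusted p under 0.05 or, where fewer than 6 passed, the 6 with the smallest P in a comparison, the gene with the largest change in each symbol family, those with the smallest P in each further list, and Htt. Genes outside this rule (Sf3a2, Sf3b1, U2af1l4, Prpf6, Snrpb2, Snrpd3, Snrpn, Srsf5, Hnrnpa1, Elavl4, Ralyl and those in lists of non-overlapping groups) were chosen after their values were seen. The values of 1 of the 68 genes are not reported here by name, though it is part of all counts and medians. The promoter motifs were chosen after viewing the windows.

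Alternatives were DESeq2 1.42.0, scaling without TMM factors, other filters, fits of 2 groups, a replicate block, a Y-linked covariate and each mouse left out. Removal of the GC trend and the joint omission of WT replicate 2 and untreated replicate 1 were chosen after seeing the data.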

Additional observations from a re-analysis of the deposited data

How the results depend on the processing

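For the 52 fold changes of single genes that were recomputed (those chosen by the rule and further genes added after seeing the data), no direction was reversed in the settings run. Of their values under alternatives, 754 kept direction and side of the threshold, 164 no longer passed and 18 newly passed. Other genes were not followed singly, and small fold changes can turn with the scaling, as the Hnrnp genes did in untreated mice.

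Of the 68 splicing genes, 7 were called in untreated against WT mice. This became 4 without TMM factors (3 lower and 1 higher), 14 with DESeq2, 3 without an expression filter, 1 when only the 2 groups were fitted, 0 with the Y-linked covariate, 13 with the GC trend removed, 1 without both WT replicate 2 and untreated replicate 1, 19 at an unadjusted P under 0.05 and 0 when that was joined with a 2-fold change. Leaving out each mouse gave 2 to 6. In treated against WT mice, the 1 call became 4 with DESeq2, 5 with the GC trend removed, 15 at an unadjusted P under 0.05, and 0 without TMM factors, without a filter, with at least 10 counts in every library, with 2 groups only, with the Y-linked covariate, without both mice, or with a 2-fold change, and 0 to 2 when each mouse was left out. Treated against untreated mice gave 0 in every setting with an adjusted p, and 1 at an unadjusted P under 0.05.

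The other splicing genes gave 15 calls in untreated against WT mice. This became 25 with DESeq2, 8 without a filter, 5 with 2 groups only, 0 with the Y-linked covariate, 30 with the GC trend removed, 3 without both mice, 40 at an unadjusted P under 0.05 and 1 with a 2-fold change, and 5 to 20 when each mouse was left out. In treated against WT mice, 5 became 1 without TMM factors, 16 with DESeq2, 1 without a filter, 3 with at least 10 counts, 2 with 2 groups only, 0 with the Y-linked covariate, 13 with the GC trend removed, 1 without both mice, 38 at an unadjusted P under 0.05 and 0 with a 2-fold change, and 0 to 8 when each mouse was left out. Between the HD groups 6 had an unadjusted P under 0.05.

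The median log2 fold change of the 68 genes in untreated against WT mice was -0.041 without TMM factors and -0.15 with the GC trend removed, and in treated against WT mice 0.037 and -0.11. The cause of these shifts was not tested. Equal replicate numbers did not pair the mice, since the deviations of same-numbered mice correlated between -0.08 and 0.24. With a replicate block the calls among the 68 genes were 4 in untreated and 0 in treated mice against WT, and 3 of the other splicing genes were called in treated mice. The design has 3 mice a group, and the counts of calls above show how far they rest on single mice.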
